A study of Homo sapiens with 24 samples.

Results

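The effect of siBRM alone was examined in SW-13 cells that had not been exposed to IFNγ. This human line comes from an adrenocortical carcinoma and is described in the study as BRG1-deficient. The rule took 6 of the 24 arrays of the series. In 3 of them the cells had received siCtrl alone, at 50 nM, and in the other 3 the same 50 nM siCtrl together with 75 nM siBRM. All 6 were untreated cultures, and each group was described as 3 biological replicates. Cells went through a pair of transfection cycles before RNA was taken. The total siRNA dose was 125 nM with siBRM and 50 nM without it, and 0 groups received the higher total without siBRM, so the loss of BRM and the larger siRNA load cannot be told apart. The other 18 arrays held cells with siSUZ12 in place of siCtrl, or cells exposed to IFNγ for 6 hours, and served only for comparison.

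BRM is the ATPase encoded by SMARCA2, and BRG1, encoded by SMARCA4, is its close relative. Either protein can drive the SWI/SNF complex, which uses ATP to slide or evict nucleosomes and so changes how well transcription factors reach promoters and enhancers. In cells without BRG1, BRM is the only other ATPase the complex can use, although the study describes SW-13 as lacking SWI/SNF activity. SUZ12 is a core subunit of PRC2, the Polycomb complex that methylates H3K27 and is known to act against SWI/SNF at many promoters. The study saw a marginal induction of BRM after PRC2 depletion. It knocked down BRM to ask whether this could explain the induction of some IFNγ-responsive genes. It reports that BRM knockdown changed the rescue of BRG1-dependent genes by siSUZ12 slightly or not at all. The arrays with siBRM and without siSUZ12 are the controls of that experiment.

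RNA was measured on Illumina Human-HT-12 BeadChips, where the brightness of a probe follows the amount of its transcript. The deposited table names probes by Illumina ID and does not pair them with genes, and 0 of the 47231 IDs occur in the gene tables used here. Results are therefore given by probe. The level of SMARCA2 itself, and with it the strength of the knockdown, was not analysed here, nor were the markers of SW-13 or of other cell types. Before normalization the mean signal of the 6 arrays lay between 568 and 635. It was 599 ± 31.1 (SD, n = 3) with siBRM and 589 ± 26.1 (SD, n = 3) without it (exact permutation test, two-sided p = 0.60). The number of probes detected at a detection p-value below 0.01 was between 15223 and 15836 per array, and also overlapped between the groups (exact permutation test, two-sided p = 0.80). With 3 arrays against 3 this test cannot give a p-value below 0.10. The log2 signals correlated at 0.995 within a group, in each of 6 pairs of arrays, and at 0.992 to 0.993 between the groups, in 9 pairs. Each of the 6 arrays correlated best with another array of its own group.

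In untreated cells the largest changes after siBRM were falls in signal. A change was taken as significant at an adjusted p-value under 0.05 (limma, adjusted by Benjamini-Hochberg over the 47231 probes), and a probe was called when a significant change was also ≥ 2-fold. By this rule 30 probes fell, which was 0.0635% of those tested, and 8 rose, which was 0.0169%, together 0.0805%. With the background correction of neqc 68 fell and 19 rose, the 30 and 8 among them. The lowered probes had a median log2 fold change of -1.19 and reached -2.54, whereas the raised probes lay between 1.001 and 1.10. Of the 30 lowered probes, 5 fell by 1.5 or more on the log2 scale, and 0 of the 8 raised probes reached that size. Across all probes the median log2 fold change was -0.02, and the 1st and 99th percentiles were -0.37 and 0.33. Signals were measured on RNA from whole cultures, so fewer cells with a transcript and less of it in each cell cannot be told apart.

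**Figure D1:**
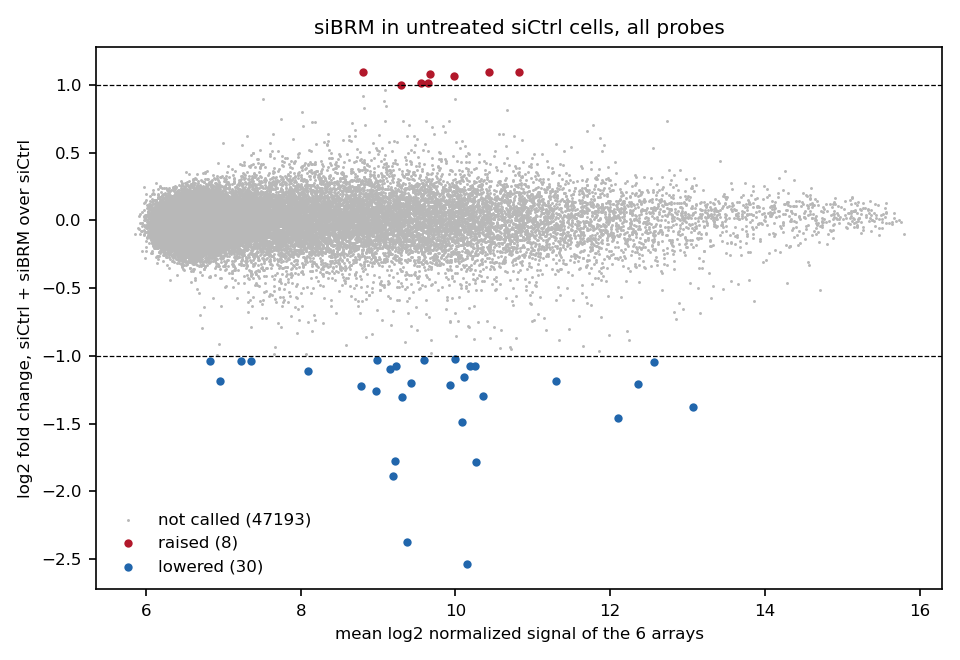
Log2 fold change of each probe between untreated siCtrl + siBRM and siCtrl cells (y axis) against its mean log2 normalized signal over the 6 arrays (x axis). Red and blue points are the 8 raised and 30 lowered probes, grey points are all other probes, and dashed lines mark a 2-fold change. The lowered probes reach a log2 change of -2.54, while no raised probe exceeds 1.10.

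The called probes were all detected in control cells. All 30 lowered probes were detected by each of the 3 siCtrl arrays, with group mean signals from 163 to 13821 and a median of 1292. The median was 109 over all 47231 probes, and 429 over the 14395 that all 3 siCtrl arrays detected. A probe near background has little room for a 2-fold fall, so for lowered probes detection in siCtrl cells follows largely from the call rule. With siBRM, 26 of the 30 were still detected by all 3 arrays and 4 by none. The 8 raised probes were detected by all arrays of both groups, and their siCtrl signals lay between 308 and 1233. The 3 arrays with siBRM did not overlap the 3 without it at any of the 38 called probes. Over all probes, the arrays failed to overlap in 7.47% with siBRM above and in 10.5% with siBRM below, so separation of the arrays alone is common. The spread within a group was small beside these changes. The coefficient of variation of the lowered probes had a median of 6.50% in siCtrl and 4.16% in siBRM arrays. The threshold cut through a continuous range, since the lowered probe nearest to it had a log2 change of -1.03 and the next one outside it -0.996, and the corresponding raised probes had 1.001 and 0.96.

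The largest fall was at ILMN_1787815. Its normalized signal in untreated siCtrl cells was 2672, 2908 and 2661 in the 3 replicates, and with siBRM it was 461, 499 and 459. All 3 siBRM arrays thus lay far under the lowest control array. This was a 5.81-fold reduction, or -2.54 on the log2 scale with a standard error of 0.09 (limma, Benjamini-Hochberg adjusted p = 5.05e-21). The transcript stayed detectable in every array. Probes were named only where the groups did not overlap, so separation of the arrays follows from the choice here and at the other named probes.

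ILMN_2170814 had the next largest fall. Its normalized signal was 1470, 1538 and 1514 in siCtrl cells and 307, 285 and 280 with siBRM. The groups were again far apart, and the control arrays differed among themselves by a few percent. This was a 5.19-fold reduction, or -2.38 on the log2 scale with a standard error of 0.08 (limma, adjusted p = 5.05e-21). These 2 probes stood apart from the other lowered probes, whose log2 changes began at -1.89.

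Among the raised probes the largest changes were at ILMN_1773650 and ILMN_1651496, and they were nearly equal. The normalized signal of ILMN_1773650 was 1192, 1305 and 1203 in siCtrl cells and 2626, 2815 and 2479 with siBRM. On the log2 scale it rose by 1.10 with a standard error of 0.08 (limma, adjusted p = 1.91e-12). For ILMN_1651496 the signal was 963, 902 and 963 in siCtrl cells and 2011, 2097 and 1942 with siBRM. It also rose by 1.10 on the log2 scale, with a standard error of 0.09 (limma, adjusted p = 3.66e-11). In both, every siBRM array was above every control array, as the rule for names required, and the rise was a little over 2-fold.

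**Figure D2:**
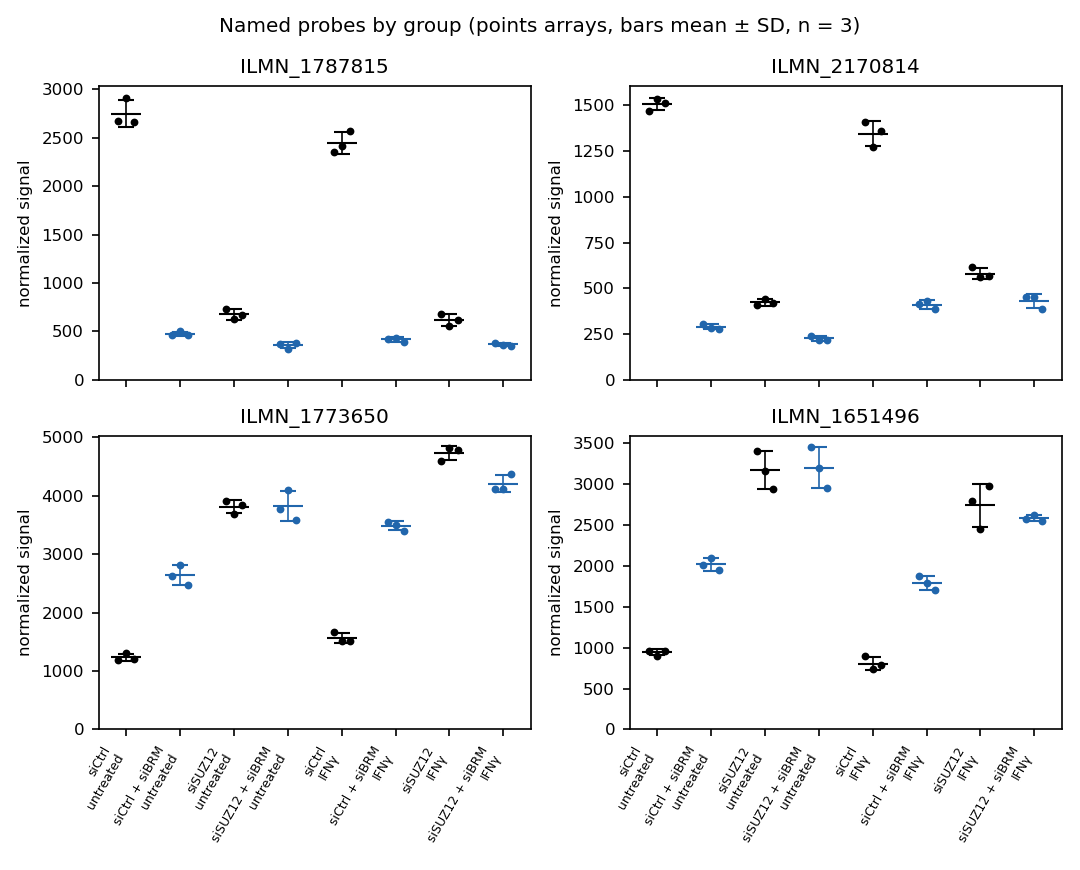
Normalized signal (y axis, linear, from 0) of 4 named probes in the 8 groups (x axis). Points are single arrays, horizontal bars the mean and vertical bars the SD (n = 3), with groups that received siBRM in blue. In siCtrl cells the siBRM arrays are lower at ILMN_1787815 and ILMN_2170814 and higher at ILMN_1773650 and ILMN_1651496, untreated as well as with IFNγ.

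Many more probes changed by less than 2-fold. Significant changes of any size numbered 715 rises and 884 falls, which were 1.51% and 1.87% of all probes and together 3.39%. The balance of falls and rises moved with the scaling, to 972 falls and 916 rises under quantile normalization and 1007 falls and 1028 rises under neqc. Of the 715 and 884, 707 rose and 854 fell by less than 2-fold, with median log2 changes of 0.35 and -0.37. Changes of at least 1.5-fold made up 49 of the 707 and 112 of the 854. Most of these transcripts were expressed in control cells, since 654 of the 707 and 794 of the 854 were detected by all 3 siCtrl arrays. Changes were seldom called at probes without a detected signal. Among the 29673 probes that none of the 6 arrays detected, 8 rose and 41 fell, none of them ≥ 2-fold. Probes detected by all 6 arrays were split by signal into 3 parts of equal size. Of the 4635 brightest, 5.87% rose and 7.10% fell. In the middle part the shares were 6.19% and 6.02%, and in the dimmest part 2.22% and 3.34%. The lowest mean signal of any probe in siCtrl cells was 57.7, so background remains in the values and makes the folds of dim probes too small.

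A transcript that is switched off would be detected by all siCtrl arrays and by no siBRM array. This held for 53 of the 47231 probes, 4 of them called, and the reverse held for 48, 0 of them called. Over all probes 0.0635% were called as lowered and 0.0169% as raised. The 53 and 48 probes were picked by their signals on these 6 arrays, so their change was read on the IFNγ arrays of siCtrl cells. There 15 of the 53 again passed from all siCtrl to no siBRM array, a pattern of 0.129% of all probes, and 7 of the 48 repeated the reverse pattern, which 0.0995% of all probes had. Of the 53, 19 fell significantly with siBRM on those arrays and 1 rose, with a median log2 change of -0.20. Of the 48, 7 rose significantly and 0 fell, with a median of 0.15. Over all probes 1.72% fell and 1.41% rose significantly there. All probes include 29673 that none of the 6 untreated arrays detected. The 53 and 48 were not matched to other probes by signal, so no excess is read from these shares. Most changes in detection were thus not repeated.

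The same siRNA comparison was made on 6 other arrays, those of siCtrl cells exposed to IFNγ, and the called probes moved in the same direction there. The median log2 change of the 30 lowered probes was -1.19 untreated and -1.16 with IFNγ, and that of the 8 raised probes was 1.07 and 1.03. All 38 moved significantly in the same direction, against 1.72% of all probes lowered and 1.41% raised on those arrays. Of the 30 lowered probes 25 fell ≥ 2-fold there, and of the 8 raised probes 6 rose ≥ 2-fold, against 0.055% and 0.0191% of all probes. Across the 30 lowered probes the log2 changes of the untreated and the IFNγ arrays correlated with Pearson's r = 0.89 and Spearman's rho = 0.81, and across the 8 raised probes with 0.53 and 0.60. This is a description across probes, which share their arrays.

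Smaller changes also kept their direction. Of the 707 probes raised by less than 2-fold in untreated cells, 693 were higher on the IFNγ arrays too, 379 of them significantly. Of the 854 lowered by less than 2-fold, 818 were lower on the IFNγ arrays, 490 of them significantly. None of either set changed significantly in the opposite direction. Over all probes 1.41% rose and 1.72% fell significantly on those arrays. Median log2 changes of the raised and lowered sets shrank a little, from 0.35 to 0.29 and from -0.37 to -0.31. Choosing the probes on the untreated arrays favours such a shrinkage.

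A test of the difference between the siBRM effects with and without IFNγ called 0 of 47231 probes, or 0% (limma interaction term). An unadjusted p-value below 0.05 was found at 1895 probes. This is less than the share of 0.05 that such a threshold gives on average with no difference at any probe. The smallest adjusted p-value was that of ILMN_2170814. Its log2 change by siBRM was -2.38 untreated and -1.71 with IFNγ, a difference of 0.66 (standard error 0.11, adjusted p = 0.0591, limma). It was 1 of 3 among the 30 lowered probes with an unadjusted p-value below 0.05 for this difference, and all 3 fell less with IFNγ. The untreated arrays had chosen these probes for their fall and also entered this difference, which favours a smaller fall with IFNγ. Over 10 alternative settings the adjusted p-value of this difference ran from 0.0014 to 1, and it was below 0.05 in 4 of them. At ILMN_1787815 the log2 change was -2.54 untreated and -2.55 with IFNγ, a difference of -0.02 (standard error 0.12, adjusted p = 1, limma).

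In siSUZ12 cells the effect of siBRM on the same probes was smaller. On the 6 untreated arrays with siSUZ12, none of which entered the calls, all 30 lowered probes were lower with siBRM, 24 of them significantly. The share of all probes lowered significantly was 1.65%. Of the 30, 4 fell ≥ 2-fold, against 0.0275% of all probes, and the median log2 change was -0.50, compared with -1.19 in siCtrl cells. Of the 8 raised probes, 2 rose significantly, 0 reached 2-fold, and the median log2 change was 0.11. Over all probes 1.29% rose significantly and 0.00635% ≥ 2-fold.

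The difference was tested on the 12 arrays with IFNγ, because the untreated siCtrl arrays had chosen the probes. This test was chosen after the data were seen. The probes were chosen for a large effect in siCtrl cells, and that effect repeated with IFNγ. The choice therefore favours a smaller effect in siSUZ12 cells on these arrays too, and a larger one could hardly appear. In untreated siSUZ12 cells the same rule called 13 lowered and 3 raised probes, and the reverse reading from these was not made. The siBRM effect was smaller in siSUZ12 than in siCtrl cells at 24 of the 30 lowered probes and all 8 raised ones (limma interaction term, significant at the same level), and larger at none. Over all probes the siBRM effect differed in 1.3%, and on the untreated arrays in 1.25%. The median difference in log2 change was 0.81 for lowered and -1.07 for raised probes. Without replicate number 1, 2 or 3 the count of 32 became 26 to 29.

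**Figure D3:**
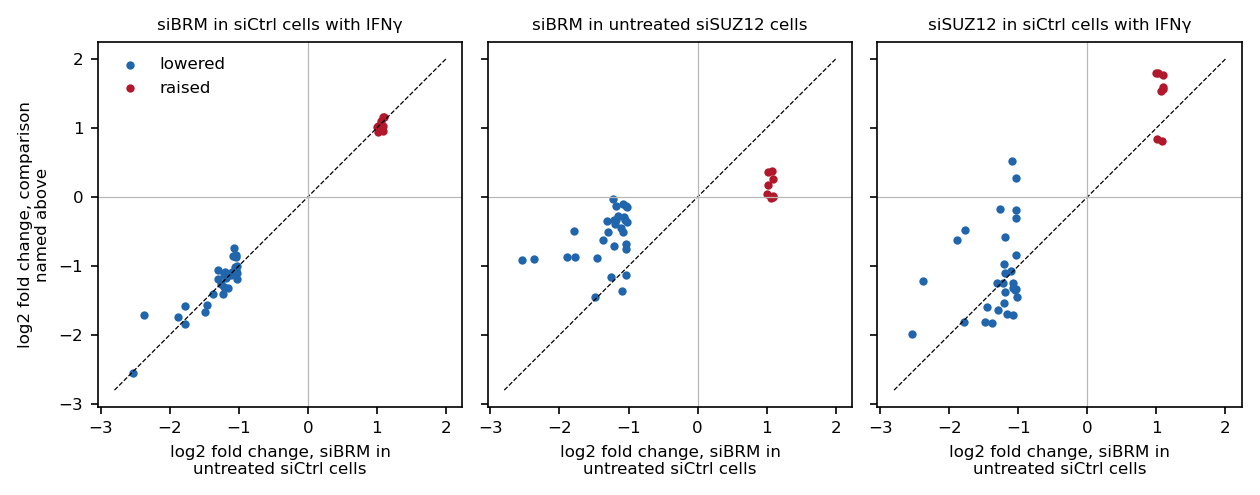
Log2 fold change of the 38 called probes in untreated siCtrl cells after siBRM (x axis) against their log2 fold change in 3 comparisons on other arrays (y axis), with lowered probes in blue and raised probes in red. The dashed line marks equal change. Points lie along the line for siBRM with IFNγ, fall towards 0 for siBRM in siSUZ12 cells, and mostly lie in the same quadrant for siSUZ12 with IFNγ, where 2 of the lowered probes are above 0.

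Most of the called probes responded to siSUZ12 in the same direction. This was read from siSUZ12 and siCtrl cells with IFNγ, which share no array with the untreated siBRM comparison. There siSUZ12 significantly lowered 26 of the 30 lowered probes, 20 of them ≥ 2-fold, and raised 2. Over all probes 6.95% fell significantly and 0.201% fell ≥ 2-fold. The 20 probes made up 66.7% of the probes lowered by siBRM and 21.1% of the 95 probes lowered ≥ 2-fold by siSUZ12 with IFNγ. All 8 raised probes rose significantly with siSUZ12, 6 of them ≥ 2-fold, against 7.28% and 0.481% of all probes. These 6 were 75% of the probes raised by siBRM and 2.64% of the 227 that siSUZ12 raised ≥ 2-fold with IFNγ.

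The lowered probes differed in their response to siSUZ12. At 20 of them siSUZ12 also caused a ≥ 2-fold fall with IFNγ, with a median log2 change of -1.41. In untreated siSUZ12 cells the median log2 change of these 20 by siBRM was -0.42, and 1 fell ≥ 2-fold. Another 6 were lowered by less than 2-fold by siSUZ12, and their median change by siBRM in siSUZ12 cells was -0.51. The remaining 4 were not lowered by siSUZ12, with log2 changes between -0.19 and 0.52, and 2 of them rose significantly. The median log2 change of these 4 by siBRM was -1.07 in siCtrl and -1.14 in untreated siSUZ12 cells, where all 4 fell significantly and 3 of them ≥ 2-fold. They were sorted by values seen on the IFNγ arrays, so the split is a description and was not tested.

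**Figure D4:**
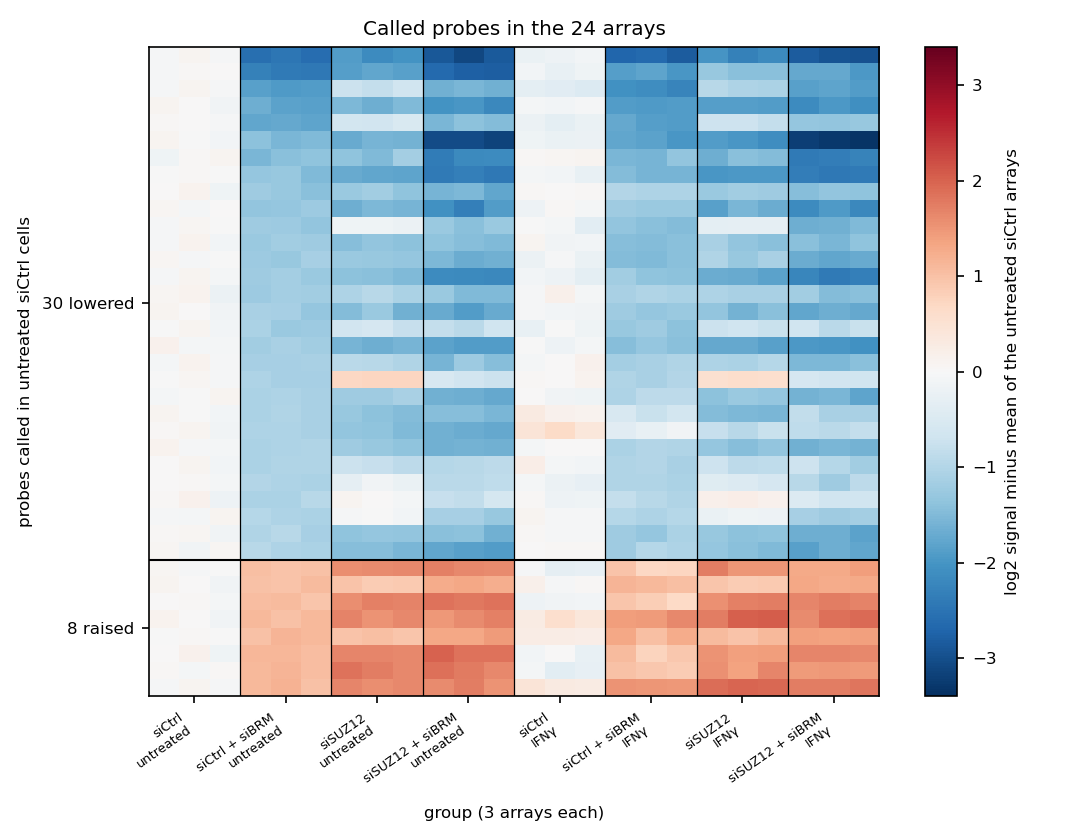
Log2 normalized signal of the 38 called probes (rows, sorted by log2 change) in the 24 arrays (columns, 3 per group), relative to the mean of the untreated siCtrl arrays. Blue is lower and red is higher. The siCtrl + siBRM and siSUZ12 groups share most of their blue and red rows, a few rows are blue only in the groups with siBRM, and arrays within a group look alike.

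The named probes show these levels group by group. At ILMN_1787815 the mean signal in untreated cells was 2747 ± 139 (SD, n = 3) with siCtrl, 473 ± 22.7 with siCtrl + siBRM, 675 ± 53.2 with siSUZ12 and 358 ± 31.6 with both siRNAs. Within siSUZ12 cells siBRM lowered it by a log2 of 0.92 (adjusted p = 5.33e-09, limma). ILMN_2170814 had the same order in untreated cells, at 1507 ± 34.2, 291 ± 14.4, 423 ± 17 and 226 ± 12.6. With IFNγ the signals of siCtrl + siBRM and of both siRNAs were 417 ± 24.9 and 365 ± 17.3 at ILMN_1787815, but 411 ± 23.9 and 432 ± 37.4 at ILMN_2170814, so the order was not kept at the latter. At ILMN_1773650 the signal was 1233 ± 62.4 with siCtrl and 2640 ± 169 with siCtrl + siBRM, against 3814 ± 108 with siSUZ12 and 3820 ± 257 with both. In siSUZ12 cells the log2 change by siBRM was 0.00 (standard error 0.08, adjusted p = 0.999, limma). ILMN_1651496 went from 943 ± 35.2 to 2017 ± 77.9 in siCtrl cells and was at 3165 ± 233 and 3195 ± 252 in siSUZ12 cells, a log2 change of 0.01 (standard error 0.09, adjusted p = 0.985, limma). At both raised probes siBRM alone gave a level between those of siCtrl and siSUZ12 cells.

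Seen from the other side, probes that siSUZ12 lowers were often lowered by siBRM alone. Of the 95 probes lowered ≥ 2-fold by siSUZ12 with IFNγ, siBRM significantly lowered 55 in untreated siCtrl cells and raised 2, which was 57.9% and 2.11%, against 1.87% and 1.51% of all probes. The lower and upper quartiles of their log2 changes were -0.93 and -0.13. Of the 227 probes that siSUZ12 raised, siBRM significantly raised 68 and lowered 12, or 29.96% and 5.29%, and the quartiles were -0.04 and 0.33. Many of all probes were not detected, and neither set was matched to other probes by signal. Of probes detected by all 6 arrays, 5.87% rose and 7.10% fell in the brightest part, and 6.19% and 6.02% in the middle part. The 5.29% lowered is thus not read as an excess. The total siRNA dose did not differ between siSUZ12 and siCtrl cells, as it did between siBRM and siCtrl cells. The part of the dose in these shared changes was not tested.

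Probes that respond to IFNγ moved in both directions when siBRM was given without IFNγ. They were defined on arrays outside the comparison, as the 130 probes induced ≥ 2-fold by IFNγ in siSUZ12 cells, a change that 0.275% of all probes reached. In untreated siCtrl cells siBRM significantly raised 12 of them and lowered 10. These were 9.23% and 7.69% of the set, against 1.51% and 1.87% of all probes, many of which were not detected. Of probes detected by all 6 arrays, 5.87% rose and 7.10% fell in the brightest part, and 6.19% and 6.02% in the middle part. The set was not matched to other probes by signal, so no excess is read from its shares. None changed ≥ 2-fold, which at a share of 0.0805% over all probes says little of 130. Their median log2 change was 0.01, with 70 above 0 and 60 below, and single probes ranged from -0.74 to 0.48. The response of the called probes to IFNγ was read in siSUZ12 cells, since siCtrl cells would share arrays with the calls. The median log2 change by IFNγ was -0.12 for the 30 lowered and 0.00 for the 8 raised probes. IFNγ significantly raised 2 and lowered 3 of the 30 and raised 1 of the 8, where 1.2% of all probes rose and 0.711% fell.

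**Figure D5:**
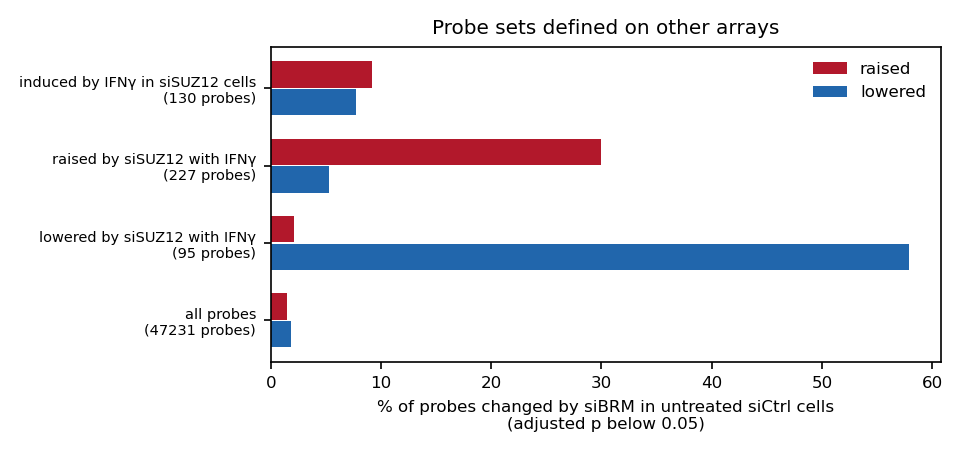
Share of probes (x axis, %) raised in red or lowered in blue by siBRM in untreated siCtrl cells, counting significant changes, for 3 probe sets defined on other arrays and for all probes (y axis). The blue bar reaches 57.9% for probes lowered by siSUZ12, and both bars stay under 10% for probes induced by IFNγ. All probes include many that were not detected, and the sets were not matched to them by signal.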

How the data were processed

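The authors hybridized cRNA of SW-13 cells to Illumina Human-HT-12 BeadChips and deposited 1 table with the signal intensity of 47231 probes in 24 arrays before normalization. The table deposited by the authors also holds a detection p-value for each intensity. The labels name BeadStudio, and its version and background setting are not given in the sources used here. Samples were assigned from their titles. Each detection p-value column was checked against its intensity column, and 0 brighter probes had a larger p-value.

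Arrays were multiplied by a factor that gave all 24 the same mean signal, in place of the BeadStudio average normalization that the study describes. Values were put on the log2 scale with a floor of 16, which changed 0 values. limma 3.58.1 in R 4.3.3 was fitted to all 24 arrays with a mean for each of 8 groups and no other term, which left 16 residual degrees of freedom. The median residual SD was 0.11 on the log2 scale, and the number of arrays limits the precision. Contrasts of group means were adjusted by Benjamini-Hochberg over all probes. The fit was tested on simulated data. matplotlib 3.10.9 under Python 3.11.15 made the plots.

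Members and lists were chosen with earlier results of these data known. The rule for names took, with no gene names at hand, the 2 largest rises and 2 largest falls among called probes with no overlap between groups. For want of gene names the 11 gene lists and the cell type markers of the design were not analysed. Alternatives were a detection filter, a replicate block, trend and robust settings of eBayes, a fit of only the groups compared, a floor of 64, 16 added in place of the floor, quantile normalization, neqc (quantile normalization after background correction by detection p-values, with 16 added), other call thresholds and leaving out arrays.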

Additional observations from a re-analysis of the deposited data

Results flagged for a closer look

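The siBRM effect differed between siSUZ12 and siCtrl cells by a test of the difference itself. By limma's interaction term with Benjamini-Hochberg adjustment, 590 of the 47231 probes differed in untreated cells and 612 with IFNγ at an adjusted p-value below 0.05. In untreated cells the count was 148 without replicate number 1, 130 without number 2 and 151 without number 3. The log2 effect of siBRM in siSUZ12 minus that in siCtrl cells, untreated, was 1.62 at ILMN_1787815 (adjusted p = 2.67e-10, limma) and 1.47 at ILMN_2170814 (adjusted p = 2.67e-10, limma). It was -1.10 at ILMN_1773650 (adjusted p = 9.64e-08, limma) and -1.08 at ILMN_1651496 (adjusted p = 1.26e-06, limma). These 4 probes had been named for their change on the same siCtrl arrays. On the arrays with IFNγ, which named none of them, the differences were 1.80, 1.28, -1.33 and -1.24 in the same order, each past an adjusted p-value of 0.05 (limma). Naming by the effect in siCtrl cells favours a smaller effect in siSUZ12 cells there too. Both siRNA backgrounds received the same total dose with siBRM, and the part of the dose in these differences was not tested.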

How the results depend on the processing

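The count of raised probes moved from 8 to 5 when 16 was added before log2, and the count of lowered probes stayed within 1.5 times. With neqc, siBRM raised 19 and lowered 68 probes in untreated siCtrl cells, the 38 called probes among them, 22 and 54 in siCtrl cells with IFNγ, and 16 and 53 in untreated siSUZ12 cells. The looser thresholds gave more probes by construction. At 1.5-fold the counts were 57 and 142, 60 and 121, and 52 and 79 in the same order, and on the adjusted p-value alone 715 and 884, 668 and 811, and 609 and 780. The 0 probes whose siBRM effect differed between IFNγ and untreated cells became 1 with quantile normalization, 7 with the detection filter, 10 with trend and robust settings and 1 with the replicate block, and stayed at 0 without replicate number 1, 2 or 3. The 590 probes that differed between siSUZ12 and siCtrl cells became 917 with neqc, 1430 with the detection filter, 1092 with trend and robust settings, and 130 to 151 without a replicate number. The filter tests fewer probes, and the cause of the other changes was not tested. Leaving out a replicate number or 1 of the 6 arrays gave 6 to 8 raised and 28 to 33 lowered probes in untreated siCtrl cells. Without a replicate number, siBRM raised 7 to 10 and lowered 24 to 27 probes with IFNγ, and raised 2 to 3 and lowered 13 in siSUZ12 cells. The 4 named probes kept their direction and an adjusted p-value below 0.05 (limma) in 17 alternatives each. Replicate numbers were shared between groups, and deviations of same-numbered arrays correlated at 0.04 to 0.08, with each of the 6 arrays correlating best with its own number, a hint from the data and not from the design. The replicate block called the same 30 lowered and 8 raised probes, gave 652 in place of 590 with 589 shared, and 33 in place of the 32 called probes with a smaller siBRM effect in siSUZ12 cells. The alternatives for gene lists need gene names and were not run. With 3 arrays per group, and with background signal not subtracted, small changes of dim probes are the least certain.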
